A study of Mus musculus with 12 samples.

Results

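A set of 10 genes of the cellular defence against oxidants and metals were followed in cardiac tissues of mice given cisplatin (CDDP), a platinum drug of cancer chemotherapy. They were chosen by gene symbol: Nqo1, Hmox1, Gclc, Gclm, Srxn1, Txnrd1, Slc7a11 and Gstm1, which the transcription factor NRF2 is known to induce, and the metallothioneins Mt1 and Mt2. All 10 were among the 55885 genes listed, and 9 of them were among the 13815 genes expressed highly enough to be tested. Slc7a11 was not.

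RNA-seq was done on 12 hearts of male C57BL/6 mice (C57BL/6J in the methods), 3 in each of 4 groups. The methods give the age of the mice as 8 weeks, without saying whether at the first dose or when hearts were taken. The Saline and CDDP groups were wild type, and the STING-/- and STING-/-+CDDP groups carried a knockout of Tmem173 (now Sting1), with no cell-type-specific deletion described. The knockout mice came from a different supplier than the wild-type mice, so genotype and supplier cannot be told apart. Mice in the CDDP groups had 3 intraperitoneal doses of 6 mg/kg, on day 1, day 8 and day 15, and the hearts were taken a week after the last dose. The hearts without CDDP are called untreated in the labels, whereas the methods name the wild-type controls a saline group and describe no injection for the STING-/- controls. Each heart came from its own mouse, and the comparison asked how CDDP changed expression with and without STING.

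NRF2 is held in the cytoplasm by KEAP1, an adaptor of a CUL3 ubiquitin ligase that marks it for degradation. When oxidants or electrophiles modify KEAP1, NRF2 escapes, pairs with a small MAF protein and binds antioxidant response elements (AREs) near genes for glutathione synthesis, thioredoxin reduction and quinone detoxification. BACH1 occupies many of the same elements as a repressor, above all at Hmox1. Metallothioneins are small cysteine-rich proteins that bind zinc, copper and toxic metals. Their genes are induced through metal response elements (MREs) by the zinc-sensing factor MTF1, and glucocorticoids and the acute phase response induce them as well.

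Expression was given as TPM, a unit corrected for the length of each gene and scaled so that all hearts have the same total. The number of reads behind a value is therefore unknown. Transcripts of Sting1 were still counted in the knockout hearts, at 2.87 to 5.96 TPM in the 6 STING-/- hearts and 5.62 to 22.1 TPM in the 6 wild-type hearts. Cardiomyocyte markers were abundant in every heart, with a summed TPM of 25420 to 49760 for 8 genes. Some hearts stood apart. CDDP heart 1 had a summed TPM of 1096 for 7 neutrophil markers, against at most 89.7 in the other 11 hearts, and Saline heart 2 had 39370 for 6 atrial markers, against 312 to 14850 elsewhere. Red blood cell markers were at 4149 to 9325 in the Saline hearts and at 42.3 to 1467 in the other 9. In whole tissue, fewer cells of a type and less RNA per cell cannot be told apart.

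The proximal promoters of 3 genes are shown first, because Gclm had the smallest adjusted p of the 10 genes under CDDP and Mt1 and Mt2 changed the most. Each covers the 250 bases before the RefSeq transcript start and the first 30 bases after it, in build GRCm38.p6 and read 5′ to 3′ along the gene. Capitals mark the ARE core TGACNNNGC in Gclm and the MRE core, TGCACNC or TGCGCNC, in Mt1 and Mt2, on either strand.
Gclm promoter, chr3:122245307-122245586, + strand: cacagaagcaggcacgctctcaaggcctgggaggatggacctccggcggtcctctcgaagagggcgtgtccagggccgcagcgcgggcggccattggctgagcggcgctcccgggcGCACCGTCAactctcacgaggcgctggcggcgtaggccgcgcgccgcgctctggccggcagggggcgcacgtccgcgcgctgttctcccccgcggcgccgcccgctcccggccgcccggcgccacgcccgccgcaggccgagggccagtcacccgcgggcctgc
Mt1 promoter, chr8:94178839-94179118, + strand: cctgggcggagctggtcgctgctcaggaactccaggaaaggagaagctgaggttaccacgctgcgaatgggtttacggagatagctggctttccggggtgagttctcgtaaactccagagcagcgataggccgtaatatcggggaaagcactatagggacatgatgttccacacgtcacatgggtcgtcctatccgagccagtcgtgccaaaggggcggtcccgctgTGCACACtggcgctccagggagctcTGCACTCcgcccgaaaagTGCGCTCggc
Mt2 promoter, chr8:94172368-94172647, + strand: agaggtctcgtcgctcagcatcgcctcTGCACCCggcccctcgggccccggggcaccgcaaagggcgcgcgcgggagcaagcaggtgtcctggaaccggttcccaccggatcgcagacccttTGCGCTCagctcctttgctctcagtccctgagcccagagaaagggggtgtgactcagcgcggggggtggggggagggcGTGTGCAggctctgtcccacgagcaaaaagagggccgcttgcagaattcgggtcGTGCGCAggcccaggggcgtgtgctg
In Gclm the ARE core lay on the opposite strand, at positions -134 to -126 from the start, and overlapped an MRE core. Mt2 held 4 MRE cores in its 300-base window and Mt1 and Gclm 3 each. Mt2 also held an ARE core, TGACTCAGC, at positions -79 to -71. The printed Mt2 stretch ends at 94172647, before the start of Mt2 in the GENCODE annotation at 94172664. Its positions therefore count from the RefSeq start only. At least 3 MRE cores were present in 1.97% of the 32851 promoter windows of this length. RefSeq windows were at hand for 8 of the 10 genes, 11 windows in all. An ARE core was found in 4 of the 11, in Gclm, Srxn1, Txnrd1 and Mt2, against 12.4% of all windows. An MRE core was found in 6 of the 11, against 25.7%. These 6 windows belong to 5 genes, because the windows of Gstm1 overlap and hold the same site. A match describes the letters in the window and is no evidence of binding.

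In wild-type mice, CDDP raised all 9 tested genes, and in each the 3 CDDP hearts lay above the 3 Saline hearts. The rise ran from 1.00 on the log2(TPM + 1) scale for Srxn1 to 3.89 for Mt2, with a median of 1.43, while the median over all tested genes was -0.00324. The test was that of limma (two-sided), and p-values were adjusted over the 13815 genes by the Benjamini-Hochberg method. Of these genes 8.52% passed as higher at an adjusted p of 0.05, and 14.9% had all CDDP hearts above all Saline hearts. The values of each gene follow, by role, with rises and differences in log2 units, that is, on the log2(TPM + 1) scale, and levels in TPM.

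**Figure D1:**
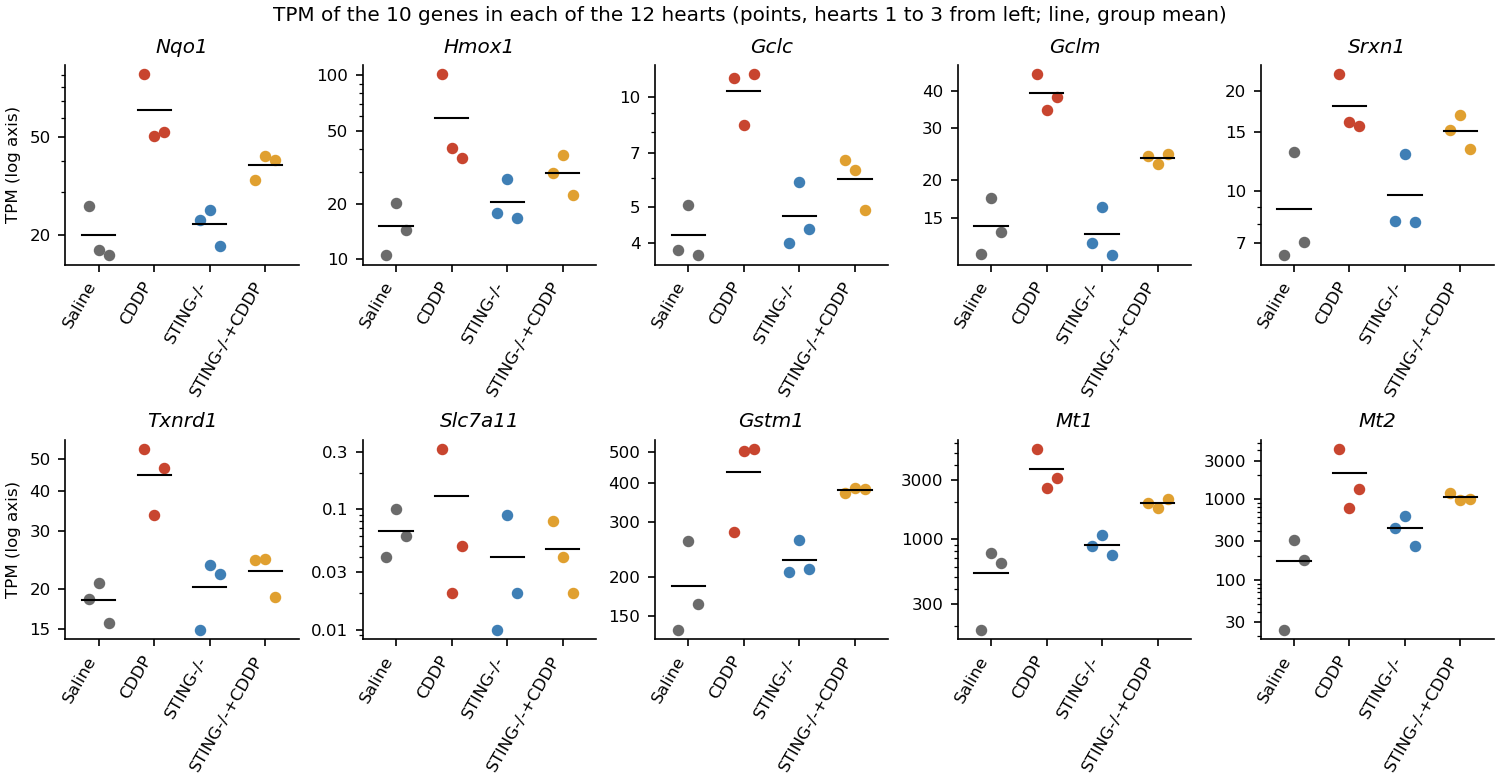
TPM (log axis) of the 10 genes in each of the 12 hearts, with hearts 1 to 3 of a group from left to right and a line at the group mean. For every gene but Slc7a11 the 3 CDDP hearts lie above the 3 Saline hearts, and CDDP heart 1 is the highest of the 12 for 8 of the 10 genes.

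Glutathione is made from cysteine, glutamate and glycine, and its first and limiting step is carried out by glutamate-cysteine ligase. Gclc, the catalytic subunit (chromosome 9, 77754535 to 77794485, plus strand of GRCm38), was at 3.82, 5.08 and 3.69 TPM in Saline hearts 1 to 3 and at 11.3, 8.37 and 11.5 TPM in CDDP hearts 1 to 3. STING-/- hearts had 4.0, 5.84 and 4.37 TPM of it, and STING-/-+CDDP hearts 6.72, 6.30 and 4.91 TPM. The CDDP hearts were thus the highest of all, and the STING-/-+CDDP hearts overlapped the STING-/- hearts. Gclc rose with CDDP in wild type by 1.13 log2 units (SE 0.19, limma adjusted p = 0.00311).

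Gclm, the modifier subunit that raises the activity of the enzyme (chromosome 3, 122245557 to 122270732, plus strand), was at 11.4, 17.4 and 13.4 TPM in Saline and at 45.4, 34.5 and 38.2 TPM in CDDP hearts. In STING-/- hearts it was at 12.4, 16.2 and 11.2 TPM, and in STING-/-+CDDP hearts at 24.1, 22.8 and 24.5 TPM. The STING-/-+CDDP hearts formed a narrow group above both groups without CDDP and below the CDDP hearts. The log2 rise with CDDP in wild type was 1.43 (SE 0.18, limma adjusted p = 9.34e-04). Between 2.57 and 4.99 TPM of Gclm were found per TPM of Gclc in the 12 hearts, and the ratios of the CDDP hearts (3.32 to 4.12) overlapped those of the Saline hearts (2.97 to 3.64).

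Slc7a11, the cystine importer that feeds glutathione synthesis (chromosome 3, 49892526 to 50443614, minus strand), was nearly absent from cardiac tissue. Its TPM was 0.04, 0.10 and 0.06 in Saline, 0.32, 0.02 and 0.05 in CDDP, 0.01, 0.09 and 0.02 in STING-/- and 0.08, 0.04 and 0.02 in STING-/-+CDDP hearts. All 4 groups overlapped, and only CDDP heart 1 exceeded 0.10 TPM. An exact two-sided permutation test of the mean TPM gave p = 0.9 for CDDP against Saline, where the smallest p that 3 against 3 hearts can give is 0.10.

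Gstm1, a glutathione S-transferase that joins glutathione to electrophiles (chromosome 3, 108012255 to 108017973, minus strand), was the most abundant of the enzymes. It was at 135, 259 and 164 TPM in Saline, 278, 507 and 515 in CDDP, 208, 262 and 211 in STING-/- and 370, 384 and 381 in STING-/-+CDDP hearts. CDDP heart 1, the highest heart for 8 of the 10 genes, was the lowest CDDP heart here. The log2 rise with CDDP in wild type was 1.22 (SE 0.26, limma adjusted p = 0.00960). The pseudogene Gstm2-ps1, 97.9% identical to Gstm1 over 657 bases, was at 0 TPM in every heart.

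Thioredoxin reductase 1, encoded by Txnrd1 (chromosome 10, 82833951 to 82897712, plus strand), keeps cytosolic thioredoxin reduced with NADPH. Txnrd1 was at 18.6, 20.9 and 15.7 TPM in Saline, 53.8, 33.6 and 46.9 in CDDP, 15.0, 23.7 and 22.1 in STING-/- and 24.4, 24.6 and 18.8 in STING-/-+CDDP hearts. The 9 hearts outside the CDDP group ran from 15.0 to 24.6 TPM, all below the lowest CDDP heart. Txnrd1 rose with CDDP in wild type by 1.22 log2 units (SE 0.22, limma adjusted p = 0.00396). It overlaps other annotated genes, of which Gm38560 reached 4.93 TPM, and reads may have been divided between them.

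Srxn1 encodes sulfiredoxin, which restores overoxidized peroxiredoxins (chromosome 2, 152105516 to 152111376, plus strand). It was at 6.43, 13.1 and 7.05 TPM in Saline, 22.4, 16.1 and 15.7 in CDDP, 8.14, 13.0 and 8.10 in STING-/- and 15.2, 16.9 and 13.4 in STING-/-+CDDP hearts. Heart 2 was the highest in both groups without CDDP, and the CDDP and STING-/-+CDDP hearts overlapped. Srxn1 rose with CDDP in wild type by 1.00 log2 units (SE 0.26, limma adjusted p = 0.0220), the smallest rise of the 9 genes. Without CDDP heart 1, without Saline heart 1 or without Saline heart 3 it no longer passed (adjusted p = 0.0678, 0.0918 and 0.0734).

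Nqo1, a quinone reductase long used as a readout of NRF2 activity (chromosome 8, 107388225 to 107403206, minus strand), was at 26.2, 17.3 and 16.5 TPM in Saline and at 90.4, 50.6 and 52.6 TPM in CDDP hearts. It was at 22.9, 25.3 and 18.1 TPM in STING-/- and at 33.5, 41.8 and 40.3 TPM in STING-/-+CDDP hearts. The 2 groups given CDDP lay above both groups without it, and the CDDP hearts lay above the STING-/-+CDDP hearts. Nqo1 rose with CDDP in wild type by 1.62 log2 units (SE 0.24, limma adjusted p = 0.00181), and by 1.36 without CDDP heart 1.

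Hmox1, the inducible heme oxygenase that breaks down heme (chromosome 8, 75093621 to 75100589, plus strand), was at 10.5, 20.3 and 14.4 TPM in Saline and at 101, 40.1 and 35.4 TPM in CDDP hearts. It was at 17.8, 27.2 and 16.8 TPM in STING-/- and at 29.3, 37.0 and 22.4 TPM in STING-/-+CDDP hearts. CDDP heart 1 had more than any other heart, and the remaining CDDP hearts were close to the highest STING-/-+CDDP heart. The log2 rise with CDDP in wild type was 1.78 (SE 0.37, limma adjusted p = 0.00849), and it was 1.31 without CDDP heart 1.

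The metallothioneins changed the most. Mt1 (chromosome 8, 94179082 to 94180327, plus strand) was at 186, 771 and 641 TPM in Saline, 5405, 2583 and 3116 in CDDP, 890, 1078 and 746 in STING-/- and 1980, 1785 and 2132 in STING-/-+CDDP hearts. The lowest CDDP heart exceeded the highest STING-/-+CDDP heart, and the STING-/-+CDDP hearts exceeded all hearts without CDDP. Mt1 rose with CDDP in wild type by 2.96 log2 units (SE 0.44, limma adjusted p = 0.00179). Its low value in Saline heart 1 counted in this: without that heart the rise was 2.32.

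Mt2 lies next to Mt1 on the same strand (chromosome 8, 94172664 to 94173568). It was at 24.1, 308 and 174 TPM in Saline, 4223, 769 and 1347 in CDDP, 438, 616 and 262 in STING-/- and 1176, 973 and 1003 in STING-/-+CDDP hearts. CDDP heart 1 had 175 times the TPM of Saline heart 1, the widest span among the 10 genes, and CDDP heart 2 lay below all 3 STING-/-+CDDP hearts. The log2 rise with CDDP in wild type was 3.89 (SE 0.81, limma adjusted p = 0.00803), 3.2 without CDDP heart 1 and 2.82 without Saline heart 1. By size of rise Mt2 was the 13th and Mt1 the 40th of the 13815 genes. An antisense gene, Gm45774, overlaps Mt2 and was at 0.10 to 3.18 TPM.

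In Saline hearts 1 to 3, Mt1 and Mt2 together took 0.0210, 0.108 and 0.0815% of all TPM, and after CDDP they took 0.963, 0.335 and 0.446%. Their share was 0.133, 0.169 and 0.101% without STING and 0.316, 0.276 and 0.313% without STING after CDDP. Mt2 was below Mt1 in every heart, with a ratio from 0.13 in Saline heart 1 to 0.781 in CDDP heart 1. Among the 9 tested genes the spread between hearts was widest for Mt2 in the Saline, CDDP and STING-/- groups. Its SD was 84.3% of the mean in Saline, 87.6% in CDDP and 40.4% in STING-/-, against 10.5% in STING-/-+CDDP (n = 3 each).

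By level, the genes kept much the same order in each group. In CDDP hearts Mt1 came first (3702 ± 1499 TPM, SD, n = 3), followed by Mt2 (2113 ± 1850) and Gstm1 (433 ± 135). Then came Nqo1 (64.5 ± 22.4), Hmox1 (58.9 ± 36.7), Txnrd1 (44.8 ± 10.3) and Gclm (39.3 ± 5.52), of which each overlapped the next over the 3 hearts. Srxn1 (18.1 ± 3.75), Gclc (10.4 ± 1.75) and Slc7a11 (0.13 ± 0.165) were lowest. Mt1 and Mt2 overlapped as well, whereas Srxn1 lay below Gclm and above Gclc in every CDDP heart.

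In CDDP-treated mice lacking STING, the 9 tested genes all had lower estimates than in CDDP-treated wild-type mice (that of Gstm1 turned under quantile normalization), but none passed the test of limma. Over all tested genes 1.22% passed in this comparison, 0.854% as lower. Against a median of -0.09 over all tested genes, the median of the 9 was -0.70. At an unadjusted p of 0.05, 5 of the 9 were lower (Nqo1, Hmox1, Gclc, Gclm and Txnrd1), where 19.8% of all tested genes changed in either direction. Nqo1, Gclc, Gclm, Txnrd1 and Mt1 had every STING-/-+CDDP heart below every CDDP heart, as did 15.6% of all tested genes. This comparison and that of CDDP with Saline share the CDDP hearts.

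Txnrd1 came nearest to the threshold, with a difference of -0.94 (95% interval -1.41 to -0.46, limma adjusted p = 0.0574). Its mean was 22.6 TPM in STING-/-+CDDP against 44.8 TPM in CDDP hearts. Gclm differed by -0.70 log2 units (95% interval -1.09 to -0.30, adjusted p = 0.0823) and Gclc by -0.70 (95% interval -1.12 to -0.29, adjusted p = 0.0873). After scaling by the median of ratios or quantile normalization, Gclc (adjusted p = 0.0387 and 0.0390) and Txnrd1 (0.0402 and 0.0407) passed as lower. Txnrd1 also passed with a filter at a TPM of 5 (0.0470) and without CDDP heart 2 (0.0326), whereas Gclm passed in none of the 23 settings tried (lowest adjusted p = 0.0595).

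Nqo1 differed by -0.68 log2 units (limma adjusted p = 0.156) and Hmox1 by -0.84 (adjusted p = 0.242), and without CDDP heart 1 they differed by -0.42 and -0.37 (adjusted p = 0.323 and 0.531). Mt1 differed by -0.84 log2 units (95% interval -1.81 to 0.12, adjusted p = 0.313), although its hearts did not overlap, and by -0.53 without CDDP heart 1. The intervals were widest for the metallothioneins: that of Mt2 ran from -2.41 to 1.12 around -0.64 (adjusted p = 0.704), and without CDDP heart 1 the difference was 0.04. Srxn1 differed by -0.23 log2 units (adjusted p = 0.672) and Gstm1 by -0.14 (adjusted p = 0.813).

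**Figure D2:**
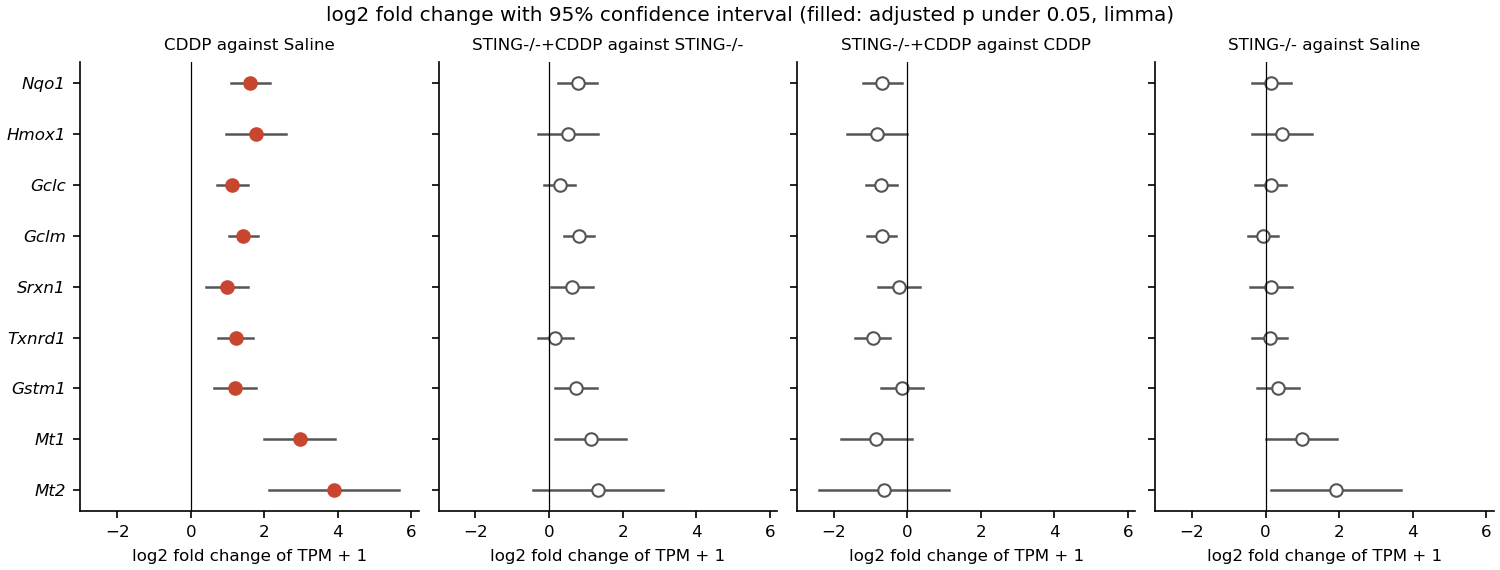
Log2 fold change on the log2(TPM + 1) scale with its 95% interval for the 9 tested genes in the comparisons. All 9 intervals lie above 0 for CDDP against Saline, with Mt2 at 3.89 and Mt1 at 2.96 farthest out, whereas no gene passed in the other comparisons.

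Without CDDP, loss of STING left no tested gene past the threshold in STING-/- against Saline hearts (limma adjusted p = 1 for all 9), where 0.0724% of all tested genes passed. The groups overlapped for all 9, whereas 2.76% of all tested genes lay above and 4.88% below without overlap. The largest estimates were those of Mt2, at 1.91 (95% interval 0.14 to 3.67, unadjusted p = 0.0366), and Mt1, at 0.98 (95% interval 0.02 to 1.95, unadjusted p = 0.0463). They were the only members with an unadjusted p under 0.05 from limma, and 3.69% of all tested genes had one. Without Saline heart 1 the estimate was 0.84 for Mt2 and 0.35 for Mt1, and with any 1 heart left out they ran from 0.84 to 2.65 for Mt2 and from 0.35 to 1.37 for Mt1. The other 7 estimates lay between -0.07 for Gclm and 0.44 for Hmox1. Both metallothioneins were lowest in Saline heart 1, at 186 TPM for Mt1 and 24.1 TPM for Mt2, against at least 746 and 262 TPM in the STING-/- hearts.

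Within STING-/- mice, CDDP gave positive estimates for all 9 tested genes, with a median of 0.74 against -0.11 over all tested genes, and none passed. In this comparison 0.934% of all tested genes passed, 0.253% as higher and 0.68% as lower. At an unadjusted p of 0.05 by limma, 5 of the 9 (Nqo1, Gclm, Srxn1, Gstm1 and Mt1) and 13.5% of all tested genes changed. In Nqo1, Gclm, Srxn1, Gstm1, Mt1 and Mt2 every STING-/-+CDDP heart lay above every STING-/- heart, as in 7.28% of all tested genes. Gclm was nearest to the threshold, at 0.81 (95% interval 0.41 to 1.21, limma adjusted p = 0.0670), and passed after median of ratios scaling (adjusted p = 0.0383) and quantile normalization (0.0295). Its mean was 23.8 TPM with CDDP and 13.3 TPM without.

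For the other genes of this comparison, Mt2 was at 1.34 (limma adjusted p = 0.510), Mt1 at 1.13 (0.284), Nqo1 at 0.78 (0.166), Gstm1 at 0.74 (0.225) and Srxn1 at 0.61 (0.326). Hmox1 was at 0.50 (0.603), Gclc at 0.29 (0.558) and Txnrd1 at 0.17 (0.783), and these 3 overlapped between the groups. With only the compared groups in the fit, Mt1 and Gstm1 passed (limma adjusted p = 0.0208 and 0.0310). With hearts weighted by arrayWeights, Nqo1 and Gstm1 passed (limma adjusted p = 0.0452 and 0.0363). The interval of Txnrd1 ran from -0.31 to 0.64, and that of its rise of 1.22 in wild type from 0.75 to 1.70. The difference between these responses was tested as an interaction, described next, which did not pass for Txnrd1 (limma adjusted p = 0.321).

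Whether CDDP acted differently in the 2 genotypes was tested as an interaction. All 9 estimates were negative, that is, the estimated response was smaller in STING-/- mice, and none passed (limma adjusted p from 0.321 to 0.714). The interaction includes the difference of CDDP from Saline hearts, in which all 9 had risen, so its sign is not independent of that rise. Only 1 gene of the 13815 passed, 0.00724%, and the median over all tested genes was -0.10 against -0.84 for the 9. An unadjusted p under 0.05 was found for 7 of the 9 and for 11.7% of all tested genes. Txnrd1 had the smallest, at -1.05 (95% interval -1.73 to -0.38, unadjusted p = 0.00526, adjusted p = 0.321), followed by Gclc at -0.84 (unadjusted p = 0.00925). The estimates for Mt1 and Mt2 were larger but less precise, at -1.83 (unadjusted p = 0.0131) and -2.55 (unadjusted p = 0.0460). With a heart left out they ran from -2.21 to -1.19 for Mt1 and from -3.29 to -1.48 for Mt2, smallest in size without Saline heart 1. Srxn1 (-0.38) and Gstm1 (-0.47) had unadjusted p of 0.321 and 0.227. The order of group means was CDDP, STING-/-+CDDP, STING-/- and Saline from high to low for 8 of the 9 tested genes, and only Gclm had Saline above STING-/-.

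Beyond the 10 genes, 113 further genes of NRF2 signaling, glutathione, thioredoxin, iron, detoxification and zinc were examined, of which 105 were tested. With CDDP in wild type 18 rose and 4 fell, against 8.52% higher and 10.4% lower over all genes, and their median change was 0.13 log2 units. The other 83 did not pass. Among regulators of NRF2, 4 of 10 rose: Maff and Mafk, which are among the small MAF partners (2.03 and 1.13 log2 units), Sqstm1, the autophagy adaptor that binds KEAP1 (1.72), and Cul3 (0.48). The transcripts of NRF2 itself (Nfe2l2, 0.52, limma adjusted p = 0.126), Keap1 (0.10, 0.631) and Bach1 (0.59, 0.0857) did not pass. NRF2 is regulated chiefly as a protein, which RNA-seq does not measure.

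Of 16 genes of glutathione synthesis and use, 3 rose and 1 fell. Slc3a2, the heavy chain that pairs with Slc7a11 and other light chains, rose by 1.71 log2 units, from a mean of 31.1 to 103 TPM, while Slc7a11 stayed at or under 0.32 TPM. Gss, glutathione synthetase, rose by 1.09 and Gstk1 by 0.57, and Chac2, which degrades glutathione, fell by 1.30. Of 15 tested glutathione S-transferases 4 rose, namely Mgst1 (2.28 log2 units), Gsta1 (1.59), Gstm2 (1.19) and Gstm7 (0.82). These families contain close copies, among which reads may have been divided.

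Of 14 genes of the thioredoxin and peroxiredoxin system only Sesn2, a stress-induced sestrin, rose (1.25 log2 units), and of 4 superoxide dismutases and catalase Sod1 rose (0.84) and mitochondrial Sod2 fell by 0.46. Among 8 NADPH-producing enzymes mitochondrial Idh2 rose (0.68), and among 7 genes of heme and iron Fth1, the ferritin heavy chain, rose (0.74). Of 22 detoxification and efflux genes 3 rose, among them Pir (1.04) and Osgin1 (0.86), and 2 fell, Akr1c14 by 1.88 and Akr1b10 by 0.82. Of the 9 other tested genes of metallothioneins and zinc handling none passed by limma (2 at an unadjusted p of 0.05), including the zinc-sensing factor Mtf1 (0.45, adjusted p = 0.0624).

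**Figure D3:**
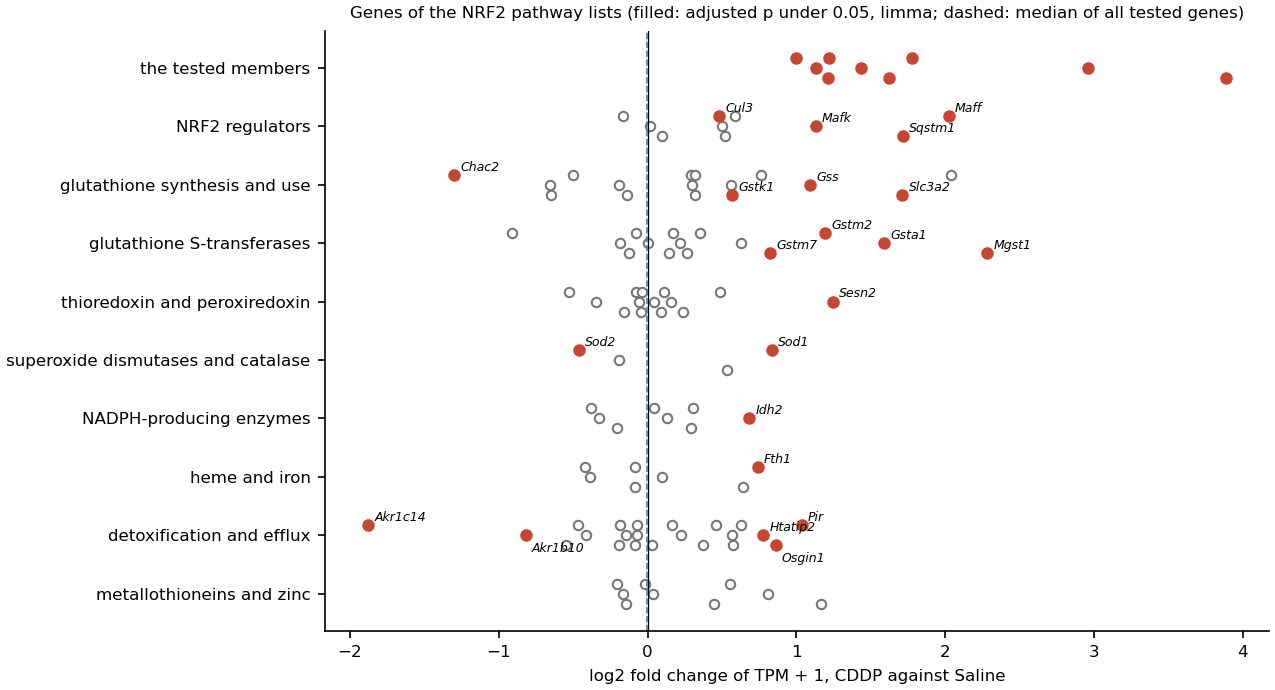
Log2 fold change of CDDP against Saline on the log2(TPM + 1) scale for each tested gene of the lists, 1 list per row, with genes that passed named. The 9 tested members, in the top row, lie between 1.00 and 3.89, and in the lists under them 18 of 105 genes rose and 4 fell.

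In STING-/-+CDDP against CDDP hearts, 1 of these 105 genes passed the test, a share no larger than the 1.22% of all tested genes. Sqstm1, itself an NRF2 target, differed by -0.89 log2 units in STING-/-+CDDP from CDDP hearts (limma adjusted p = 0.0462) and by 0.93 from STING-/- hearts (adjusted p = 0.0415). Its mean was 212 TPM in Saline, 698 in CDDP, 194 in STING-/- and 370 in STING-/-+CDDP hearts. Chac2 was lower with CDDP in STING-/- mice (-0.95, adjusted p = 0.0428). None of the 105 passed in STING-/- against Saline hearts by limma, where 4 of them and 3.69% of all tested genes had an unadjusted p under 0.05, and 63 had positive estimates.

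Lists of genes of the acute phase, glucocorticoid and ATF4 responses were also examined. Of 10 acute phase and STAT3 genes 7 rose with CDDP in wild type, led by serum amyloid Saa3 (6.93 log2 units), lipocalin Lcn2 (5.45), the protease inhibitor Serpina3n (4.57) and Socs3, a feedback inhibitor of cytokine signaling (2.56). Their summed TPM was 60.2 to 159 in Saline, 750 to 2918 in CDDP, 129 to 520 in STING-/- and 374 to 556 in STING-/-+CDDP hearts, with CDDP heart 1 the highest, as for Mt1 and Mt2. Of 10 glucocorticoid-induced genes 4 rose, against 8.52% of all tested genes: Fkbp5 (2.55 log2 units), Cdkn1a (2.17), Per1 (0.94) and Sgk1 (0.87). Their summed TPM was 492 to 730 in Saline, 1025 to 1488 in CDDP, 631 to 742 in STING-/- and 1281 to 1429 in STING-/-+CDDP hearts, so that the 2 groups given CDDP overlapped. Of 13 tested genes of the ATF4 response, which consist of Atf4 itself and genes it induces, 2 rose (Atf4 1.07 and Sesn2 1.25), where 8.52% of all tested genes rose, and Atf4 was lower in STING-/-+CDDP than in CDDP hearts (-1.15, adjusted p = 0.0462). Whether glucocorticoids raised the genes of their list was not tested, nor was the part of these responses in the rise of the 10 genes.

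**Figure D4:**
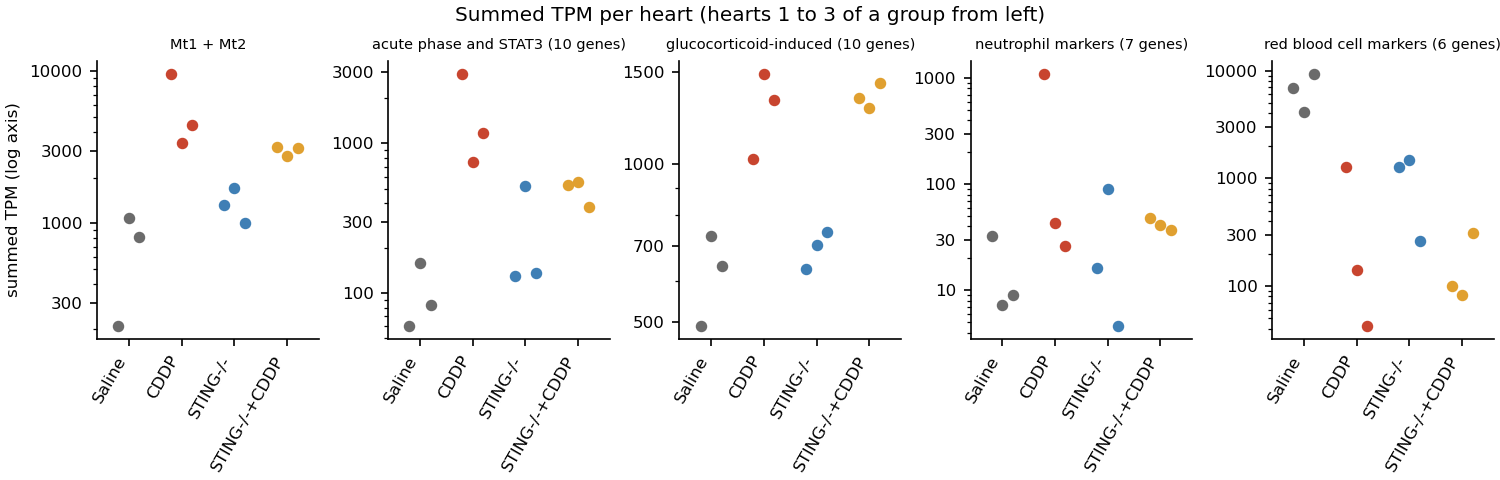
Summed TPM (log axis) in each of the 12 hearts for the metallothioneins and for lists of response and cell type genes, with hearts 1 to 3 of each group from left to right. CDDP heart 1 stands apart in the neutrophil list, at 1096 TPM, and is the highest in the acute phase list, at 2918 TPM.

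Markers of other cells also moved. With CDDP in wild type, 6 of 6 red blood cell markers, 7 of 10 macrophage markers, 5 of 7 endothelial markers and 4 of 7 fibroblast markers fell. Over all tested genes 10.4% passed as lower. None of the neutrophil, atrial, fat or skeletal muscle markers passed by limma (3, 0, 0 and 1 at an unadjusted p of 0.05). The summed macrophage markers were at 548 to 768 TPM in Saline and 191 to 354 TPM in CDDP hearts. The summed endothelial markers were at 1415 to 2449 and 905 to 1088 TPM. The summed fibroblast markers overlapped, at 827 to 1992 TPM in Saline and 987 to 2100 TPM in CDDP hearts. Of 8 cardiomyocyte markers 1 rose and 1 fell. With both CDDP heart 1 and Saline heart 2 left out, a choice made after seeing the data, all 9 genes were still called higher with CDDP in wild type. In that fit 2662 of 13552 tested genes were called, 65.6% of them as higher. With all hearts, 2610 of 13815 were called, 45.1% of them as higher, so higher calls were more common among all genes too. The part of cell composition in these results was not tested.

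The genes whose pattern over the 12 hearts was most like that of the 3 most variable members were sought by the root mean square difference between mean-centred log2(TPM + 1) values. For Mt2 (SD 1.85 over the hearts) these were Serpina3n (0.609), Mt1 (0.637) and Lcn2 (0.736). For Mt1 (SD 1.29) they were apolipoprotein D, Apod (0.299), Map3k6 (0.404) and Mgst1 (0.430). For Hmox1 (SD 0.824) they were adenosine deaminase, Ada (0.221), a locus assembled by the authors without a gene name (0.263) and St3gal1 (0.288). All genes share the same 12 hearts and groups, so likeness here is a description of the pattern.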

How the data were processed

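RNA of 12 mouse hearts was measured by RNA-seq. The deposited values are TPM for each gene in each heart. The submitters' processing notes name fastp, HISAT, RSEM and build GRCm38.p5, without versions or roles. Columns summed to 999999 to 1000001, and read depth, library kit and strandedness are not given in the sources used here. Columns of the authors' group means and gene length were not used. Positions were taken from GENCODE M21 (55141 of 55885 identifiers matched) and promoter windows from RefSeq.

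Values were transformed to log2(TPM + 1), which understates changes of low genes. Genes reaching a TPM of 1 in 3 or more hearts were fitted with limma 3.58.1 in R 4.3.3 (1 coefficient per group, eBayes with a trend, 8 residual degrees of freedom), two-sided, with Benjamini-Hochberg adjustment over 13815 genes and a threshold of 0.05. Slc7a11, under the filter, was compared by exact permutation. The fit was tested on simulated data.

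The members and gene lists were chosen with earlier results of these data known. All members, Nfe2l2, Keap1, Bach1 and Mtf1 were named, and per list up to 4 genes that passed, largest change first. For likeness, the 3 members with the largest SD were used. Alternatives were other pseudocounts, filters, scalings and fits, the replicate number as a block, and each heart left out in turn.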

Additional observations from a re-analysis of the deposited data

How the results depend on the processing

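The 9 calls of CDDP against Saline were kept under the other settings, except that 5 remained with only the compared groups in the fit (Hmox1, Srxn1, Gstm1 and Mt2 had adjusted p of 0.0519, 0.0836, 0.0680 and 0.0590), Srxn1 was lost without a filter (0.0506), and 8 to 9 were called with a heart left out. The fit with only the compared groups has fewer hearts to estimate the spread, whereas the main fit pools the spread of each gene over all 4 groups. Over all genes the smaller fit called 822 against 2610 for CDDP against Saline, with a median SE of 0.2375 against 0.2155. For STING-/-+CDDP against STING-/- it called 204 against 129, with a median SE of 0.1824 against 0.2155. The calls in wild type and in STING-/- mice thus depend on this pooling.

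For STING-/-+CDDP against CDDP, the count called lower went from 0 to 1 with a filter at a TPM of 5 (Txnrd1), 2 after median of ratios scaling, 2 after quantile normalization, and 0 to 1 with a heart left out (Txnrd1 without CDDP heart 2, adjusted p = 0.0326). For STING-/-+CDDP against STING-/-, the count called higher went from 0 to 1 (Gclm) under either scaling and without mitochondrially encoded genes. It was 2 with only the compared groups (Gstm1 and Mt1) and 3 with arrayWeights (Nqo1, Gclm and Gstm1). With a heart left out it was 0 to 1 (Gclm without Saline heart 2). Without CDDP heart 1 and Saline heart 2, a choice made after seeing the data, it was 2 (Gclm and Gstm1). Over all genes, 168 passed in either direction for STING-/-+CDDP against CDDP, 246 with a filter at a TPM of 5, and 668 and 671 under the scalings. For STING-/-+CDDP against STING-/-, 129 passed over all genes, 242 and 297 under the scalings and 193 without mitochondrially encoded genes. That total was 204 with only the compared groups, 613 with arrayWeights and 275 without CDDP heart 1 and Saline heart 2. The scalings moved the median of STING-/-+CDDP against STING-/- from -0.11 to -0.01 and 0.02. The cause was not tested.

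Signs turned for the following estimates, none of which passed the test. In STING-/-+CDDP against CDDP, Gstm1 was 0.03 under quantile normalization and 0.0012 and 0.012 without CDDP heart 2 or 3 (range with a heart left out -0.43 to 0.012), and Mt2, at -0.64 with all hearts, was 0.040 without CDDP heart 1, alone or with Saline heart 2 (-1.19 to 0.040). In STING-/- against Saline, Gclm was 0.038 with arrayWeights, 0.081 without Saline heart 2, alone or with CDDP heart 1, and 0.030 without STING-/- heart 3 (-0.22 to 0.081). There Srxn1 was -0.018 without Saline heart 1 and -0.050 without STING-/- heart 2 (-0.050 to 0.44), and Txnrd1 was -0.0054 without the latter (-0.0054 to 0.31). In STING-/-+CDDP against STING-/-, Txnrd1 was -0.026 without STING-/- heart 1 (-0.026 to 0.29).

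Same-numbered hearts are different animals. Their deviations correlated at -0.333 to 0.261 over 12 pairs, and those of hearts with different numbers at -0.225 to 0.431. With 3 hearts per group, these values cannot tell whether hearts with the same number shared a day or batch. With the replicate number as a block, 9 members were called higher for CDDP against Saline and 0 in the other comparisons. TPM keeps no depth, and no counting error is given.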
